A study of Mus musculus with 21 samples.

Results

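Fabp4, Fabp5, Fabp3, Fabp7, Pparg, Cd36 and Apoa2 are 7 genes of lipid carriage, uptake and sensing among the 21844 gene symbols of an expression table from EL4 cells, a mouse T lymphoma line derived from C57BL/6. They were taken by symbol, and each had 1 row in the table. The set was drawn up with the difference between the hairpin groups already known, chiefly the difference of Fabp4, so the values that compare the groups are a description here and carry no test. The series as a whole examined chromatin contacts and gene expression around CTCF, the DNA-binding protein of insulators and loop anchors. The samples used here are 2 EL4 libraries with a hairpin against Ctcf (shCTCF) and 2 EL4 libraries with a hairpin against luciferase (shLuc), all of poly(A) RNA, out of 21 samples in the series. The labels name the groups only as shCTCF and shLuc, and give neither the hairpin sequence, nor how long it acted, nor whether the cells were a clone or a pool. They also do not say whether replicate libraries trace to different cultures. Every SD, SE and p-value below is therefore about how these 4 libraries scatter, and that scatter can be technical.

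Fatty acid binding proteins (FABPs) are small cytosolic carriers that take up a long-chain fatty acid in a barrel-shaped pocket and deliver it to membranes, enzymes or the nucleus. Different tissues use different members, and Fabp4, the adipocyte form, is a textbook marker of fat cells that is also made by macrophages and some endothelial cells. In fat cells the nuclear receptor PPAR gamma, encoded by Pparg, is activated by fatty acids and drives Fabp4 together with Cd36, the surface receptor that takes fatty acids in. Apoa2 encodes a protein of high-density lipoprotein that is made mainly in liver.

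Depth and labels were checked first. The RPKM values (reads scaled to gene model length and library size) implied divisors of 4346709 and 5768562 reads in the shCTCF libraries and of 5240361 and 6133045 reads in the shLuc libraries, so that a single read over 1 kb of gene model counted for 0.163 to 0.23 RPKM. The libraries are named 2 and 3 within each hairpin, as the headers of the table number them. Ctcf, the target of the hairpin, stood at 26.5 and 26.4 RPKM in shCTCF cells, against 49.0 and 50.9 RPKM in shLuc cells. All 11 T cell markers passed the expression filter described below, with summed levels of 1936 and 1937 RPKM in shCTCF cells and of 2232 and 2212 RPKM in shLuc cells. Of these, Thy1, a surface glycoprotein of T cells, was at 483 ± 21.1 RPKM in shCTCF cells and 615 ± 35.4 RPKM in shLuc cells, and Ptprc, the common leukocyte antigen, at 350 ± 2.94 and 381 ± 23.7 RPKM in the same groups (SD, n = 2 each). Of the 11, 10 had a log2 difference below 0, with a median of −0.22. Over all 9898 genes tested, 4619 were below 0, with a median of 0.01. Of the 11, 8 were lower in both shCTCF libraries than in either shLuc library, against 19.9% of all genes tested. In limma 0 of the 11 were called, against 1.29% of all genes tested. Of the 11, 7 had an unadjusted p below 0.05, as had 14.1% of all genes tested. Limma-voom on recovered reads called 3 of 9 lower. Of the 6889 genes with such reads it called 172 lower, and 5.39% in either direction. In bulk RNA a change in the number of cells that express a gene and a change in RNA per cell cannot be told apart.

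Sequence upstream of the annotated starts was read for the 5 members that matched the RefSeq promoter table (build GRCm38.p6), which gave 8 starts. Fabp4 and Fabp5 had no entry there, so the counts below hold no sequence of these genes. Apoa2 is shown because it is the member of this table with higher values in shCTCF cells, and both of its starts are given, and Fabp7 because it is a carrier of the same family that stayed at a few reads. The stretches cover the 250 bases before each start on the plus strand. Capitals mark CCCTC or its reverse complement GAGGG, the pentamer after which CTCF is named, and AGGTCA or its reverse complement TGACCT, the half-site of nuclear receptors such as PPAR gamma.
Apoa2, upstream start, chr1:171221314-171221563: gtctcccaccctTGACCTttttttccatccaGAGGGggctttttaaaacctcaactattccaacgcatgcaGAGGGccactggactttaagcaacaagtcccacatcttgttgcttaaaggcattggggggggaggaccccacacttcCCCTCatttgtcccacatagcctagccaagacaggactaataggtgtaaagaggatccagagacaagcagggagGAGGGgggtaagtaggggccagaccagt
Apoa2, downstream start, chr1:171224804-171225053: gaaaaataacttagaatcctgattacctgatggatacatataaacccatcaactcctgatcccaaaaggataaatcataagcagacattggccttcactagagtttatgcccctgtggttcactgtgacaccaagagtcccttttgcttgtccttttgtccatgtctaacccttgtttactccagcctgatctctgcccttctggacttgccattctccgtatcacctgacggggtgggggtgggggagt
Fabp7, chr10:57784673-57784922: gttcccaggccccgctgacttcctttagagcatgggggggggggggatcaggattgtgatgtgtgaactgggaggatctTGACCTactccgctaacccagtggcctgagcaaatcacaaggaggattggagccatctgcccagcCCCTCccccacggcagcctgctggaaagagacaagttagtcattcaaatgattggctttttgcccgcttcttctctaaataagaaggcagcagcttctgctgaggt
The upstream Apoa2 stretch held 4 matches to the pentamer and 1 to the half-site, and the downstream stretch held 0 of each. The Fabp7 stretch held 1 of each. Over the 8 starts, 5 held the pentamer and 5 the half-site. Those with the half-site belong to Apoa2, Cd36, Fabp7 and Pparg, of which only Apoa2 passed the expression filter described below. Among all 32851 promoter stretches of the same length, 60.5% held the pentamer and 14% the half-site. The 8 starts come from 5 chosen genes, some with several starts, so these shares were not compared by a test. The marked matches do not overlap one another in the stretches shown. A match describes these letters and does not show that a protein binds there.

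Of the 7 members, 3 passed the filter of a mean of 1 RPKM or more over the 4 libraries, namely Fabp4, Fabp5 and Apoa2, and each of them also had a mean above 1 RPKM within each group. All 3 were higher in both shCTCF libraries than in either shLuc library. Such separation upwards held for 24.1% of the 9898 genes tested, and downwards for 19.9%. All 3 were also called higher in limma at a Benjamini-Hochberg adjusted p below 0.05, as were 0.697% of the genes tested, while 0.596% were called lower. These calls ended for all 3 without the filter on low values, without shLuc library 2 and without shLuc library 3, where 0, 0 and 2 genes were called over the whole table. The call of Fabp5 also ended without shCTCF library 2 and without shCTCF library 3. Since the set was chosen on this contrast, neither count says anything further. Fabp3, Fabp7, Cd36 and Pparg did not pass the filter, and no fold is given for them. The authors' deposited table of changed genes lists the same 3 members and not the other 4, while it lists 1.97% of all rows, and 0.967% as higher.

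Fabp4 (transcript NM_024406) stood at 17.6 and 26.0 RPKM in the shCTCF libraries, against 6.85 and 5.34 RPKM in the shLuc libraries. Both shCTCF libraries were above both shLuc libraries, and the shCTCF libraries were farther from each other than the shLuc libraries were. The values rest on 49 and 96 reads in shCTCF cells and on 23 and 21 reads in shLuc cells, on a gene model of 641 bp. The exact Poisson 95% intervals, which cover counting error only, ran from 13 to 23.3 and from 21.0 to 31.7 RPKM in the shCTCF libraries, and from 4.34 to 10.3 and from 3.31 to 8.17 RPKM in the shLuc libraries. The intervals of the groups thus did not meet, while the intervals of the shCTCF libraries overlapped each other. Fabp4 was chosen on this contrast, so this gap and the rank given below describe its values and do not test them. The means were 21.8 ± 5.92 RPKM in shCTCF cells and 6.09 ± 1.06 RPKM in shLuc cells (SD, n = 2 each), a ratio of 3.57. On the log2(RPKM + 1) scale the difference, shCTCF minus shLuc, was 1.67 with a standard error (SE) of 0.18. It ranked 10 among 9898 genes. With only shCTCF library 2 against both shLuc libraries it was 1.40, and with only shCTCF library 3 it was 1.93. In the authors' deposited table the log2 fold change of Fabp4 is 1.86.

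Fabp5 (NM_010634), the epidermal form, which many tissues including lymphoid cells express, was the most abundant member in every library. It stood at 44.4 and 43.7 RPKM in shCTCF cells, against 29.9 and 28.2 RPKM in shLuc cells. The groups did not overlap, and the libraries of each group lay close together. The reads were 180 and 235 in shCTCF cells and 146 and 161 in shLuc cells, on 932 bp. The Poisson 95% intervals began at 38.2 and 38.3 RPKM in the shCTCF libraries and ended at 35.2 and 32.9 RPKM in the shLuc libraries. The means of 44.1 ± 0.51 RPKM in shCTCF cells and 29.0 ± 1.22 RPKM in shLuc cells (SD, n = 2 each) gave a ratio of 1.52 and a log2 difference of 0.59 (SE 0.08). The authors' deposited table gives a log2 fold change of 0.59. The RefSeq gene table also holds Fabp5l2, a pseudogene named after Fabp5. Whether reads are shared between them was not tested.

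Apoa2 (NM_013474) stood at 4.86 and 4.99 RPKM in the shCTCF libraries, against 1.47 and 1.25 RPKM in the shLuc libraries. The groups did not overlap, but few reads lie behind these values, 11 and 15 in shCTCF cells and 4 and 4 in shLuc cells on 521 bp. The Poisson 95% intervals of 2.42 to 8.69 and 2.79 to 8.23 RPKM in the shCTCF libraries met those of 0.399 to 3.75 and 0.341 to 3.21 RPKM in the shLuc libraries. Counting error of a single library is therefore larger than the spread between libraries, for which the SD was 0.0945 RPKM around 4.92 RPKM in shCTCF cells and 0.151 RPKM around 1.36 RPKM in shLuc cells (n = 2 each). The ratio of the means was 3.62 and the log2 difference 1.33 (SE 0.16). Limma-voom on recovered reads, an alternative added later, gave 1.76 with a larger SE of 0.49. The pseudocount matters at this level. With 0.1 in place of 1 the difference was 1.79, and the authors' deposited table gives 1.83. The annotated span of Apoa2 overlaps that of Tomm40l, a gene of the mitochondrial import machinery, and the sources do not say whether the counting used strand. No row carried the symbol Tomm40l alone, so its level cannot be given here.

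Fabp3, the carrier of heart and skeletal muscle, stood at 0.719 and 0.271 RPKM in shCTCF cells, against 0 and 0.51 RPKM in shLuc cells. These values rest on 2 and 1 reads in shCTCF cells and on 0 and 2 reads in shLuc cells, and the groups overlapped. Its span overlaps that of Zcchc17, a zinc-finger gene at 25.6 and 23.8 RPKM in shCTCF cells and at 25.4 and 25.5 RPKM in shLuc cells. Fabp7, the carrier of radial glia in the brain, stood at 0.604 and 0.227 RPKM in shCTCF cells, against 0.25 and 0.642 RPKM in shLuc cells. Its reads were 2 and 1 in shCTCF cells and 1 and 3 in shLuc cells, and the groups overlapped as well. Every library held 3 reads or fewer of either gene, so a difference between the groups was not detectable at this depth. In the shLuc library where Fabp3 was at 0, the limit set for a count of 0, which is 3 reads, corresponds to 0.894 RPKM, and the upper bound of the exact Poisson interval is 1.10 RPKM.

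Pparg (NM_001127330 and NM_011146, joined in 1 row) was listed at 0 in all 4 libraries. Cd36, whose row joins 5 transcripts, was listed at 0 in both shCTCF libraries and in shLuc library 2, and at 0.05 RPKM in shLuc library 3. Reads could not be recovered for these joined rows. The receptor and the uptake protein that accompany Fabp4 in fat cells were thus listed at or near 0 in both groups. A single read over 1 kb counts for 0.163 to 0.23 RPKM at this depth, so a value of 0 does not show that a gene was silent. The part of PPAR gamma in the Fabp4 values was not tested.

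**Figure D1:**
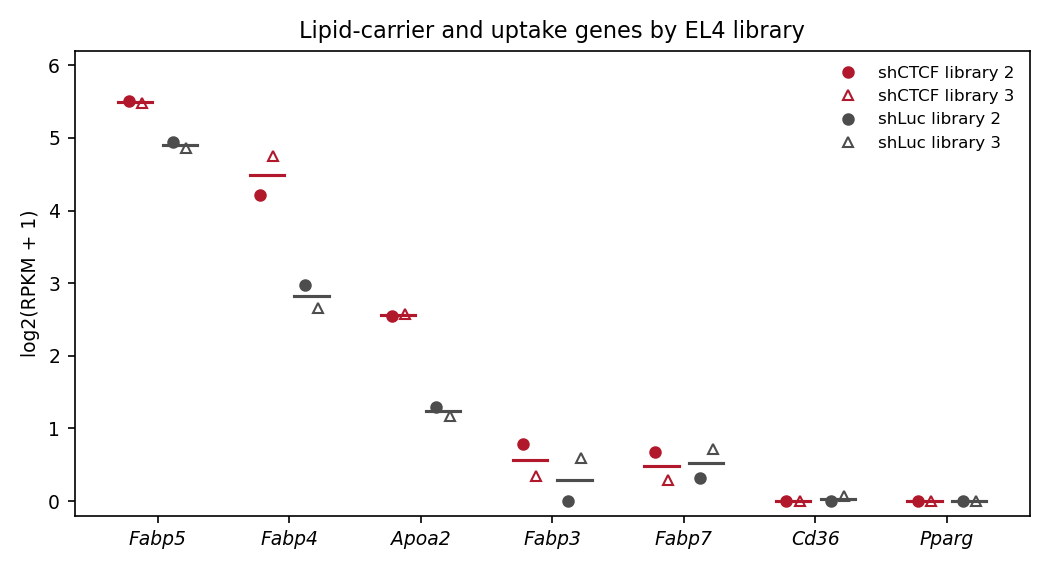
Expression of the 7 members in each EL4 library as log2(RPKM + 1), with shCTCF in red on the left and shLuc in grey on the right of each gene. Points are libraries (filled circles library 2, open triangles library 3) and bars are group means. Fabp5, Fabp4 and Apoa2 have both shCTCF libraries above both shLuc libraries, whereas Fabp3 and Fabp7 overlap and Cd36 and Pparg lie at or near 0.

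The plot of the members by library shows Fabp5, Fabp4 and Apoa2 in the same order of levels in both groups. RPKM is scaled to gene model length, so levels may be set side by side. Fabp5 was highest, then came Fabp4 and then Apoa2, and in each library these 3 were separated by more than the spread within a group. Fabp3 and Fabp7 followed and did not differ from each other beyond their spread, at 0.495 ± 0.317 and 0.416 ± 0.266 RPKM in shCTCF cells and at 0.255 ± 0.36 and 0.446 ± 0.277 RPKM in shLuc cells (SD, n = 2 each). Cd36 and Pparg came last. Fabp4 in shCTCF cells exceeded 56.8% of the 9898 tested genes, against 21.7% in shLuc cells. Fabp5 exceeded 78.2% of tested genes in shCTCF cells, against 66.4% in shLuc cells, and Apoa2 17.7% against 3.34%.

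The carrier family as a whole was made up almost entirely of Fabp5 and Fabp4. Of 10 FABP genes in the table, Fabp1 to Fabp7, Fabp9, Fabp12 and Pmp2, 6 were listed at 0 in every library, namely Fabp1, Fabp2, Fabp6, Fabp9, Fabp12 and Pmp2. The summed RPKM of the 10 genes was 63.3 and 70.2 in the shCTCF libraries, against 37.0 and 34.7 in the shLuc libraries. Fabp4 made up 27.8% and 37.0% of that sum in shCTCF cells, against 18.5% and 15.4% in shLuc cells. Fabp5 made up 70.1% and 62.3% in shCTCF cells, against 80.8% and 81.3% in shLuc cells. The ratio of Fabp4 to Fabp5 was 0.396 and 0.594 in shCTCF cells, against 0.229 and 0.19 in shLuc cells. Related carriers of retinoids were near or at 0. Crabp2, a retinoic acid carrier, had 1 and 3 reads in shCTCF cells and 1 and 2 in shLuc cells. Of the 11 genes in the list of further FABPs and retinoid carriers, 0 passed the filter.

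Fabp4 and Fabp5 lie in a run of FABP genes on mouse chromosome 3. In the RefSeq gene order of GRCm38.p6, used here only for which genes are neighbours, Fabp5 lies on one side of Fabp4, with Fabp9 and Pmp2 between them, and Fabp12 is the next gene on the other side. The intervening and adjoining FABP genes Fabp9, Pmp2 and Fabp12 were listed at 0 in all 4 libraries. Of the 9 neighbours that are no members, 4 passed the filter and 0 were called in limma (adjusted p 0.45 to 0.925), against 1.29% of all genes tested. An unadjusted p below 0.05 was found for 0 of them, against 14.1%. Limma-voom called 0 of 3, against 5.39% of the 6889 genes with recovered reads. With so few genes, counts of 0 called are near these shares. Impa1, an inositol monophosphatase, lay at 22.4 and 23.1 RPKM in shCTCF cells and at 20.5 and 23.8 RPKM in shLuc cells, with overlapping groups. Zfand1, a zinc-finger protein, lay at 5.06 and 3.70 RPKM in shCTCF cells and at 3.36 and 3.38 RPKM in shLuc cells (log2 difference 0.29, SE 0.16). Pag1, an adaptor that recruits the kinase Csk to the T cell membrane, lay at 11.5 and 11.6 RPKM in shCTCF cells and at 13.4 and 13.3 RPKM in shLuc cells (log2 difference −0.19, SE 0.10). Zfp704, a zinc-finger gene, lay at 7.18 and 7.05 RPKM in shCTCF cells and at 6.16 and 6.45 RPKM in shLuc cells (log2 difference 0.15, SE 0.12). Both shCTCF libraries were above both shLuc libraries for Zfp704 and Zfand1, and below them for Pag1. Such separation held upwards for 24.1% and downwards for 19.9% of all genes tested. Slc10a5 and Chmp4c were at 0 in 3 of the 4 libraries each. No test compared Fabp4 with its neighbours.

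**Figure D2:**
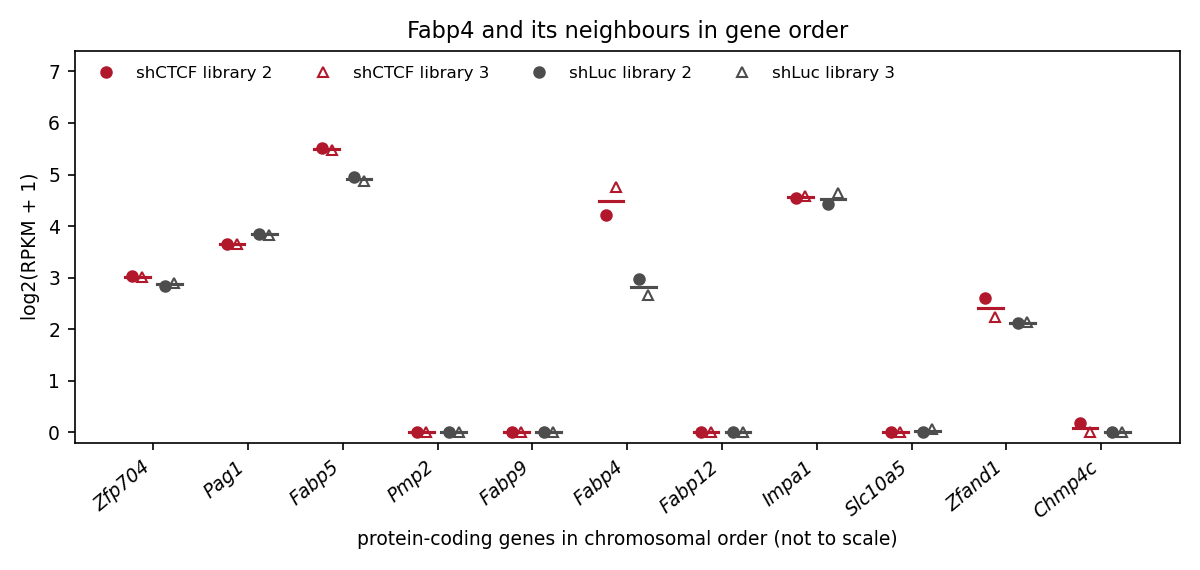
Expression of Fabp4 and of the 5 protein-coding genes on each side, in chromosomal order and not to scale, as log2(RPKM + 1) per EL4 library. Red points on the left of each gene are shCTCF libraries, grey points on the right shLuc libraries, and bars are group means. Fabp4 and Fabp5 have both shCTCF libraries well above both shLuc libraries, Fabp9, Pmp2 and Fabp12 are at 0, and Impa1 overlaps between the groups. Zfp704 and Zfand1 have both shCTCF libraries above both shLuc libraries by less, and Pag1 has both below.

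Genes that work with PPAR gamma gave a share of calls near that over all genes. Of 21 partners and regulators of PPARs, 19 matched a row and 15 passed the filter, of which 0 were called in either direction, against 1.29% of all genes tested. Their median log2 difference was 0.03, next to 0.01 over all genes tested, with 8 above 0 and 7 below. Limma-voom called 0 of the 10 with recovered reads, against 5.39% of the 6889 genes with such reads. An unadjusted p below 0.05 in limma was found for 1 of the 15, against 14.1% of all genes tested. The 1 gene was Rxra, an RXR receptor, at 11.9 and 10.2 RPKM in shCTCF cells and at 9.06 and 8.61 RPKM in shLuc cells. Its log2 difference of 0.29 (SE 0.12, adjusted p = 0.303 in limma) was the highest in the list. Ppard, another PPAR, lay at 10.0 and 10.0 RPKM in shCTCF cells and at 10.2 and 8.11 RPKM in shLuc cells, with overlapping groups. Ep300, a histone acetyltransferase and coactivator, lay at 38.7 ± 1.41 RPKM in shCTCF cells and 39.6 ± 0.937 RPKM in shLuc cells (SD, n = 2 each). Cebpa, an adipocyte transcription factor that acts beside PPAR gamma, and Rxrg, an RXR receptor, were listed at 0 in all libraries.

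Lipid genes that PPARs are known to regulate did not pass in limma on log2(RPKM + 1) either. Of 35, 29 matched a row and 14 passed the filter. Of these 0 were called, against 1.29% of all genes tested. Above 0 were 9 and below 0 were 5, and the median log2 difference was 0.05. An unadjusted p below 0.05 was found for 5 of 14, against 14.1% of all genes tested. Limma-voom on recovered reads called 1 of 13, against 5.39% of the 6889 genes with such reads. It was Scd1, a desaturase that makes monounsaturated fatty acids, at 41.9 and 44.5 RPKM in shCTCF cells and at 52.0 and 55.2 RPKM in shLuc cells, with a log2 difference of −0.31 (SE 0.08, adjusted p = 0.0149). Ucp2, a mitochondrial carrier abundant in immune cells, lay at 151 ± 4.05 RPKM in shCTCF cells and 148 ± 5.71 RPKM in shLuc cells. Cpt1a, which commits fatty acids to mitochondrial oxidation, lay at 62.0 ± 3.81 RPKM in shCTCF cells and 61.2 ± 1.44 RPKM in shLuc cells (SD, n = 2 each). The highest value in the list was that of Gpd1, a glycerol phosphate dehydrogenase, at 0.42 (SE 0.21, adjusted p = 0.446 in limma), which was picked after its value was seen. Its mean was 1.52 RPKM in shCTCF cells and 0.899 RPKM in shLuc cells. It thus passed the filter of 1 RPKM only through the shCTCF libraries, and the filter favoured its direction. Lpl, Plin1, Cidea, Pck1, Fads2 and Cyp4a10 were listed at 0 in all libraries.

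Genes of fatty acid uptake, activation and storage had a median log2 difference of −0.07 over 15 tested genes of 24. Of these 0 were called, against 1.29% of all genes tested. An unadjusted p below 0.05 was found for 1, against 14.1%. Above 0 were 3 and below 0 were 12, where 4619 of all 9898 genes tested were below 0. Limma-voom called 0 of 10, against 5.39% of the 6889 genes with recovered reads. Dbi, an acyl-CoA binding protein, lay at 148 and 193 RPKM in shCTCF cells and at 137 and 148 RPKM in shLuc cells. Its groups nearly touched, and the log2 difference was 0.25 (SE 0.12). Got2, an aminotransferase that has also been described as a fatty acid binding protein of the plasma membrane, lay at 139 ± 1.75 RPKM in shCTCF cells and 146 ± 5.72 RPKM in shLuc cells (SD, n = 2 each). Among apolipoproteins and genes of lipoprotein handling, the list of Apoa2, 6 of 21 passed the filter and 0 were called, with 0 at an unadjusted p below 0.05 and a median of −0.08. Limma-voom called 0 of 3. In lists this short, counts of 0 called are near the shares over all genes. Apod, a lipocalin, lay at 25.7 ± 2.41 RPKM in shCTCF cells and 25.4 ± 0.284 RPKM in shLuc cells, and Apool, a mitochondrial protein, at 17.9 ± 0.229 and 15.2 ± 1.55 RPKM in the same groups (SD, n = 2 each). Apob, Apoa4, Apoa5, Apoc3 and Vldlr were listed at 0 in all libraries.

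**Figure D3:**
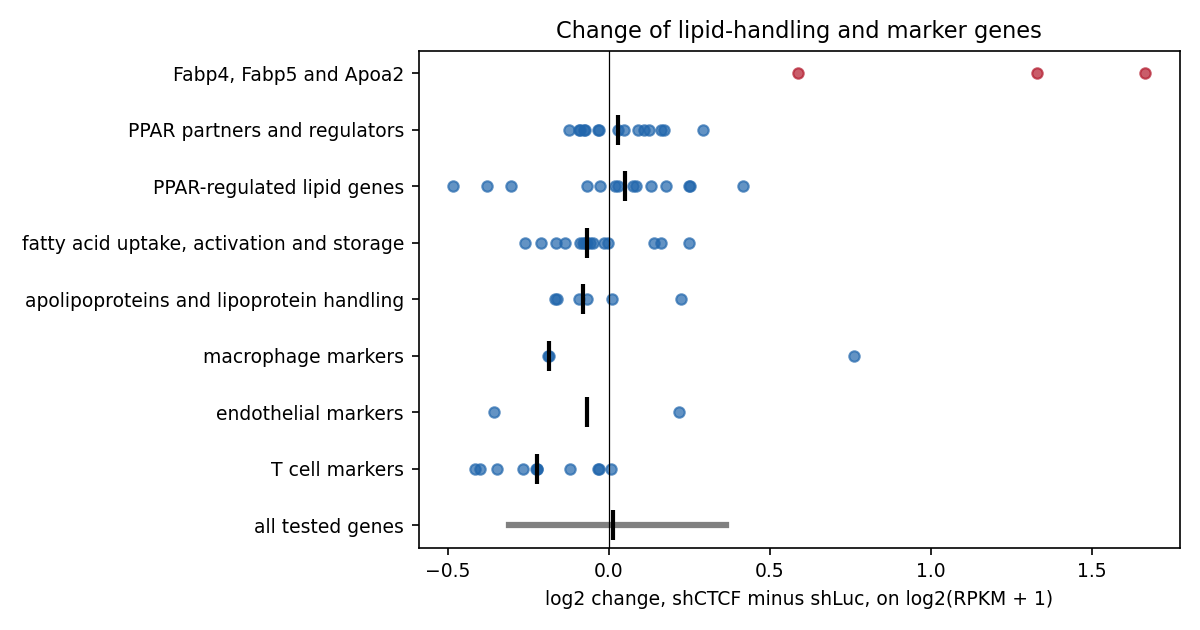
Log2 difference, shCTCF minus shLuc on log2(RPKM + 1), of each tested gene in the lipid and marker lists (blue) and of Fabp4, Fabp5 and Apoa2 (red). Black ticks are medians and the grey bar spans the 5th to 95th percentile of all 9898 tested genes, −0.31 to 0.36. The red points at 0.59, 1.33 and 1.67 lie to the right of that bar, where the members were chosen to lie, and nearly all list genes lie within or near it.

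Markers of the cell types that normally make Fabp4 were set beside it. Of 6 adipocyte markers, Lep, Plin1 and Retn were listed at 0 in all libraries and 0 passed the filter, and their summed level was 0.322 and 0.329 RPKM in shCTCF cells, against 0.362 and 0.309 RPKM in shLuc cells. Of 12 macrophage markers, 11 matched and 3 passed the filter, with Cd14, Emr1, Marco and Mertk at 0 in all libraries. The sum of the list was 10.3 and 10.1 RPKM in shCTCF cells, against 8.86 and 9.95 RPKM in shLuc cells. Within it Cd68, a lysosomal glycoprotein of macrophages, was at 3.65 and 3.10 RPKM in shCTCF cells (16 and 18 reads) and at 1.70 and 1.46 RPKM in shLuc cells (9 and 9 reads). The groups did not overlap, with a log2 difference of 0.76 (SE 0.17), but the adjusted p of 0.0886 in limma missed the threshold. Cd163, a scavenger receptor of macrophages, was at 3.55 and 4.64 RPKM in shCTCF cells and at 4.72 and 4.81 RPKM in shLuc cells, and Lyz2, a lysozyme of myeloid cells, had 3 and 2 reads in shCTCF cells and 2 and 3 in shLuc cells. Of 6 endothelial markers, Kdr was at 0 in all libraries and 2 passed the filter. Pecam1, an adhesion molecule that leukocytes share, was at 10.9 ± 0.0142 RPKM in shCTCF cells and 14.3 ± 1.28 RPKM in shLuc cells, and Flt1, a receptor for vascular growth factors, at 1.94 ± 0.00657 and 1.53 ± 0.226 RPKM in the same groups (SD, n = 2 each). The endothelial sum was 13.1 and 13 RPKM in shCTCF cells, against 16.7 and 15.2 RPKM in shLuc cells. None of these 3 lists had a called gene in limma, against 1.29% of all genes tested. An unadjusted p below 0.05 was found for 1, 1 and 0 genes in the macrophage, endothelial and adipocyte lists, against 14.1%. Limma-voom called 0 of the 1 macrophage and 0 of the 1 endothelial marker with recovered reads, against 5.39% of the 6889 genes with such reads. With so few genes tested, counts of 0 called are near these shares. The part of other cell types in the Fabp4 values was not tested.

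The 3 members with higher values have short gene models, and short genes as a class were shifted in the same direction, more in shCTCF library 3 than in shCTCF library 2. Among single-transcript genes with recovered reads, the median log2 difference was 0.10 over 727 genes with gene models over 300 and up to 1000 bp, the class of Fabp4, Fabp5 and Apoa2. It was 0.03 over 1809 genes of up to 2000 bp, −0.00021 over 2652 genes of up to 4000 bp and −0.0077 over 1576 longer genes. It was 0.15 over 125 genes of up to 300 bp. There the median difference from the shLuc mean was 0.09 in shCTCF library 2 and 0.37 in shCTCF library 3. In the class over 300 and up to 1000 bp these medians were 0.04 in shCTCF library 2 and 0.16 in shCTCF library 3. Of these 727 genes 26 (3.58%) had a log2 difference at or above that of Fabp5, Fabp5 included, and the 95th percentile was 0.49. The part of gene length in the values of the members was not tested.

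**Figure D4:**
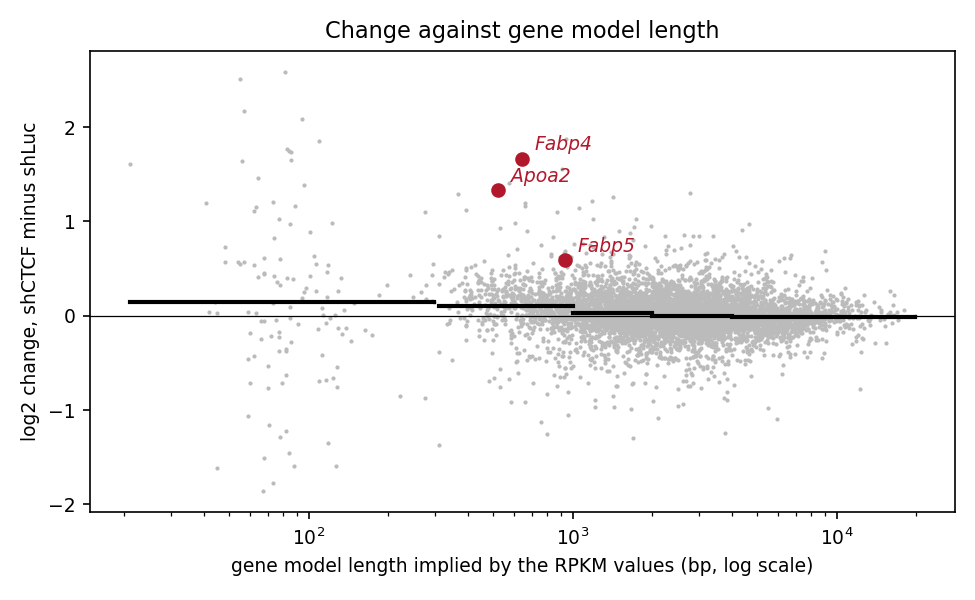
Log2 difference, shCTCF minus shLuc on log2(RPKM + 1), against the gene model length implied by the RPKM values (log scale), for single-transcript genes with recovered reads. Grey dots are genes, black bars are medians of the length classes, and red dots are Fabp4, Fabp5 and Apoa2. The median is 0.10 between 300 and 1000 bp and near 0 above 2000 bp, and the red dots lie above the median of their class.

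The genes whose profile over the 4 libraries was most like that of Fabp4 were found by the root mean square distance between library deviations from the gene mean on the log2(RPKM + 1) scale. The nearest 5 of the other tested genes were Mir697, Dbil5, Apoa2, Icam4 and Snora61, at distances of 0.148, 0.219, 0.253, 0.256 and 0.28. Apoa2 is thus itself among them. Icam4, an adhesion molecule of red cells, had 57 and 80 reads in shCTCF cells and 19 and 27 in shLuc cells, and Snora61, a small nucleolar RNA, had 7 and 14 reads in shCTCF cells and 5 and 5 in shLuc cells. Dbil5, a testis-expressed relative of the acyl-CoA binding protein Dbi, had 5 and 7 reads in shCTCF cells and 1 and 0 in shLuc cells. Mir697, a microRNA precursor, had 1 and 2 reads in shCTCF cells and was at 0 in shLuc cells, so its place in this order rests on 3 reads. Mir697 and Dbil5 reached the filter of a mean of 1 RPKM only through the shCTCF libraries, so the filter itself set their direction. With 4 libraries in 2 groups such a distance mainly finds genes with a like difference between the groups.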

How the data were processed

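Expression was measured by sequencing poly(A) RNA of 2 shCTCF and 2 shLuc libraries of EL4 cells, grouped by their titles. The submitters' processing notes name Bowtie2 and the mouse genome build mm9. Gene counter, annotation release and use of strand were not stated. RPKM per gene was deposited by the authors in a table of 22119 rows, some of which join several transcripts. A second deposited table, of changed genes, holds the same RPKM together with each gene's p-value, false discovery rate, log2 fold change and mean log2 CPM, per the file headers. It numbers the libraries 1 and 2, where the first one has 2 and 3, so the columns were used as replicates of their hairpin.

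Each library's divisor was taken as the most frequent greatest common divisor of reciprocal RPKM values among low rows. With it, whole reads (within 3e-11 in relative terms) came out in every library for 98.2% of the 7035 single-transcript rows at a mean of at least 1 RPKM. The smallest gene model length that did so was kept, so reads can be too low by a whole factor.

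Where a symbol had several rows the one with the highest mean was used. The 9898 genes at a mean of at least 1 RPKM were tested on the log2(RPKM + 1) scale, without renormalizing, by limma 3.58.1 in R 4.3.3 with a trended eBayes prior and a Benjamini-Hochberg threshold of 0.05. Limma-voom on the recovered reads was an alternative added later. Intervals are exact Poisson at 95% and cover counting error only. The members and lists were chosen with earlier results of these data known. The rule for named genes took the members, Ctcf, called list genes or else the 2 most highly expressed tested genes of each list, the 5 genes nearest to Fabp4 in pattern and its 5 protein-coding neighbours on each side. Genes named as being at 0, the overlapping genes, Rxra, Ppard, Gpd1, Scd1, Lyz2, Crabp2 and the promoter motifs were added after the values were seen. Some genes that the rule names are not reported here. Chromatin domain lists were not used here, since gene positions in mm9 were not at hand. Plots used matplotlib 3.10.9 and other calculations Python 3.11.15, numpy 2.4.6, pandas 2.3.3 and scipy 1.17.1.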

Additional observations from a re-analysis of the deposited data

How the results depend on the processing

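Fabp4, Fabp5 and Apoa2 were higher in shCTCF cells under every alternative in which they were fitted. The 3 were chosen on this contrast, and their groups did not overlap. Another pseudocount or filter, a block or a left-out library could therefore not reverse their direction, and the constant direction is no support for it. Apoa2 fell below the filter of a mean of 5 RPKM, so no value could be had there. The log2 difference of Apoa2 was 1.79 with a pseudocount of 0.1 and 1.76 with limma-voom run on reads recovered from RPKM, which was added once the data had been seen, against 1.33 as reported. With 1 library left out, the difference ranged from 1.40 to 1.93 for Fabp4, from 0.54 to 0.63 for Fabp5 and from 1.26 to 1.40 for Apoa2. Over all genes the number called in limma was 128. It was 371 with limma-voom, which covered only the 6889 genes with recovered reads. It was 507 with the library number as a replicate block, and 0 without the filter on low values, where 1619 genes had an unadjusted p below 0.05. It ranged from 0 to 78 with 1 library left out (0 without shLuc library 2, where 1034 genes had an unadjusted p below 0.05, 2 without shLuc library 3, 58 without shCTCF library 3 and 78 without shCTCF library 2), in fits that assume the lone library to vary like the other group. The calls of Fabp4, Fabp5 and Apoa2 all ended without the filter and without either shLuc library, and that of Fabp5 also without either shCTCF library. The cause was not tested. Same-numbered libraries correlated by 0.165 in their deviations from the group means across genes. With 2 pairs they share only a number, and in this balanced design a block cannot move the 3 differences themselves. List medians near 0 can change sign, and that of the PPAR partners was −0.0087 without shLuc library 3 while that of the apolipoproteins was 0.02 with limma-voom. Depth limits Fabp3 and Fabp7, at 3 reads or fewer in each library, and Apoa2, at 4 reads in each shLuc library.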
